A study of Mus musculus with 66 samples.

Results

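The poly(A) sites used in control C2C12 myoblasts, a mouse skeletal muscle precursor line grown in culture, were described from 3'READS counts. 3'READS sequences the 3' ends of polyadenylated RNA, and a read that carries non-genomic Ts from the poly(A) tail, called a PASS read, marks a cleavage site. The control libraries were chosen by their label alone and were 2 of the 7 3'READS samples, in a series of 66 samples on the Paf1 complex and alternative polyadenylation (APA). Both came from C2C12 cells transfected with 50 nM of the control siRNA, siCtrl, for 48 h. There was 1 library in batch 1 and 1 in batch 2, where the batch is the number that ends the library's label. These are transfected cells, and untransfected cells were not analysed here. The 3'READS table, which has 8 per-sample columns beside these 7 samples, held 59578 sites of 15856 genes. Of these sites, 41871 had a read in at least 1 siCtrl library and 27781 had reads in both.

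A pre-mRNA ends where the cleavage and polyadenylation machinery cuts it and adds a poly(A) tail. The CPSF complex recognises a poly(A) signal hexamer upstream of the cut, CstF binds downstream elements, and cleavage factor I binds further upstream. Many mammalian genes carry several such sites. Sites within the last exon give 3'UTRs of different length, while sites in introns give transcripts with another coding end. Cleavage also occurs on antisense transcripts that leave the promoter in the opposite direction.

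The sequence next to the main intronic site of 9 genes with mostly intronic reads is shown so that sites with and without a poly(A) signal hexamer close by can be seen. Each stretch is the 30 bases ending at the site, 5' to 3' on the strand of the transcript, in the mm9 genome. Capitals mark the hexamer AATAAA or ATTAAA, which was searched on the site's own strand only. The Eif4e2 stretch lies at chr1:89124609-89124638 on the + strand and the Tor1aip2 stretch at chr1:157900631-157900660 on the + strand. Masp1 is shown at chr16:23468434-23468463 on the - strand and Chd9 at chr8:93409935-93409964 on the + strand. Tatdn1 is shown at chr15:58731482-58731511 on the - strand and 4933413G19Rik at chr6:128327758-128327787 on the + strand. The Zfr stretch, at chr15:12111521-12111550 on the + strand, holds neither hexamer. Neither do those of Msl1, at chr11:98662337-98662366 on the + strand, and Ncam1, at chr9:49323234-49323263 on the - strand. In Msl1 and Ncam1 a hexamer lies further upstream, within 40 bases of the site, and in Zfr none does.
Eif4e2 intronic: ctgagatcacaAATAAAtggtgctaaacca
Msl1 intronic: aaaatggtctacaaactatttttcaaacaa
Tor1aip2 intronic: taatttggaAATAAAatctttttgaaatga
4933413G19Rik intronic: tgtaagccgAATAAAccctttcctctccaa
Masp1 intronic: agtggaAATAAAtctatggataaccaacaa
Chd9 intronic: gtgtatttacatataagtaAATAAAtcttt
Tatdn1 intronic: ggtgcAATAAAtccgttgttgttagatgca
Ncam1 intronic: taaaggatataacagttcgtgtaaacccaa
Zfr intronic: agttgatataaaactttccgctctgaaaaa

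Last-exon sites are shown in the same way for genes whose upstream, or proximal, site took most reads, so that it can be set beside the downstream, or distal, site. The Lgals1 stretches lie at chr15:78760597-78760626 and chr15:78760868-78760897 on the + strand. For Rpl27a they lie at chr7:116665257-116665286 and chr7:116665856-116665885 on the + strand. For Rpl22 they lie at chr4:151706560-151706589 and chr4:151708147-151708176 on the + strand. In Lgals1 both sites follow AATAAA. In Rpl27a the proximal site follows ATTAAA and the distal site AATAAA, and in Rpl22 the order is the opposite.
Lgals1 proximal: AATAAAggcagctgcctctgctccccataa
Lgals1 distal: tttgtcttAATAAAagccagaaaccactga
Rpl27a proximal: ggttaATTAAAtgctaacattttccatgtg
Rpl27a distal: aAATAAAgcccaagatcctgattgtctaca
Rpl22 proximal: ttaattcataAATAAAatttaggaacaaaa
Rpl22 distal: cactttttgtATTAAAgtggctgacacatg

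For 2 genes the leading antisense site upstream of the promoter is drawn with its hexamer. The site upstream of Stc2 is shown at chr11:31271208-31271237 on the + strand and the site upstream of Ccdc85b at chr19:5458020-5458049 on the + strand. Over all 59578 sites, 58.6% had either hexamer in the 40 bases upstream of the site. A window of the same length placed 200 bases further upstream held it at 3.90% of sites.
Stc2 antisense: atgtaaaATTAAAgcaccccaccccccaaa
Ccdc85b antisense: gtttgtttAATAAAcctttgttgtgtgaaa

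The siCtrl library of batch 1 held 7385518 PASS reads and that of batch 2 held 9804681. Reads fell on 32823 sites (55.1%) in batch 1 and on 36829 sites (61.8%) in batch 2. Levels are given per 1000000 PASS reads of the library (RPM), with no scaling by transcript length. The proteasome subunit gene Psmb6 had the highest mean level, 21417 RPM in batch 1 and 27010 RPM in batch 2. Sh3bgrl3 had 33757 and 9415 RPM, and the elongation factor gene Eef2 had 12884 and 2981 RPM. The 10 genes with the highest mean level over both libraries held 15.1% of reads in batch 1 and 10.1% in batch 2. These are not the 10 leading genes of batch 2 alone, where Actb, at 7388 RPM, stood above Eef2. So the batch 1 library was shallower and gave more of its reads to these 10 genes.

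The myoblast label was checked against cell markers. Of 10 myoblast genes, 8 had at least 20 reads in each library, and their levels summed to 2124 RPM in batch 1 and 2679 RPM in batch 2. Des, which encodes the muscle intermediate filament desmin, was the most abundant at 1504 and 812 RPM. Cdh15, the muscle cadherin, had 89.5 and 706 RPM, and the myogenic factor gene Myf5 had 7.18 and 29.99 RPM. Myod1, a defining marker of the line, had only 2 and 4 reads. Pax7 had 0 reads in both, which allows up to 0.406 RPM in batch 1 and 0.306 RPM in batch 2. Des, Cdh15 and Myf5 were thus read in both libraries, while Myod1 and Pax7 were near or at 0 in these counts. In RNA-seq of siCtrl cells, Des had 199 and 386 RPKM, Cdh15 135 and 164 RPKM, and Myf5 28.2 and 31.4 RPKM in batch 1 and batch 2.

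Genes of differentiated myotubes summed to 67.0 and 126 RPM over 11 genes, led by Myh3 at 48.3 and 51.9 RPM, with Myh2 at 0 in both libraries and no site listed under the symbol Tnni2. Other genes of this list were higher in batch 2, with Ttn at 2.84 and 23.8 RPM, Acta1 at 7.18 and 21.6 RPM, Myog at 6.36 and 14.2 RPM and Mef2c at 0.271 and 8.16 RPM. The 5 fibroblast genes summed to 2413 and 2928 RPM, of which the collagen gene Col3a1 gave 2382 and 2876 RPM. No site was listed under the symbol Thy1, and Pdgfra was at 6.63 and 2.04 RPM. The endothelial list of 4 summed to 21.9 and 31.0 RPM, nearly all from Kdr, with Pecam1 at 0. The 4 neural genes summed to 73.4 and 161 RPM, nearly all from the tubulin gene Tubb3, with Rbfox3 at 0. The lists of 4 leukocyte, 4 epithelial and 4 adipocyte genes summed to at most 4.74 RPM in either library, with Ptprc and Krt18 at 0 in both. No site was listed under the symbols Cd3e, Adgre1, Epcam, Fabp4 and Cfd, so these genes add nothing to the sums and their absence from the cells is not shown. The most abundant of these were Cd68 at 4.74 and 1.84 RPM, Plin1 at 0.812 and 0.204 RPM, and Cdh1 at 0.542 and 0 RPM. The part of other cell types or of differentiation in the results below was not tested.

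Sites were typed by the authors from the RefSeq gene model. The 3'-most exon held 38550 sites (64.7% of all sites), and these took 97.4% of the reads in batch 1 and 97.7% in batch 2. Introns held 16766 sites (28.1%) but took 2.03% of reads in batch 1 (Wilson 95% interval 2.02 to 2.04) and 1.70% in batch 2 (1.69 to 1.71). Internal exons held 967 sites (1.62%) with 0.427% and 0.416% of reads. Upstream antisense sites numbered 3295 (5.53%) and took 0.160% and 0.138% of reads. The order of the 4 classes was the same in both libraries, and the 3 classes outside the last exon each took a higher share in batch 1. The intervals of the libraries did not overlap for any class, but reads have no molecular identifiers, so the intervals cover counting error only.

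Coverage of single sites differed by class, and the part of the level of the gene in this was not tested. Among sites with reads, the median last-exon site had 14 reads in batch 1 and 18 in batch 2, against 3 and 3 for intronic and 3 and 3 for antisense sites. Reads in both libraries were found at 59.4% of last-exon sites, 23.6% of intronic, 20.0% of internal exon and 21.6% of antisense sites. No siCtrl read was found at 45.2% of intronic and 20.5% of last-exon sites. Most intronic sites in the table were therefore rare or unseen in siCtrl cells at this depth.

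A few sites led each class. In the last exon these included the single sites of Psmb6, Sh3bgrl3, 2410006H16Rik and Rab5c, each with 100% of its gene's reads in both libraries among sense reads. The leading intronic sites belonged to Eif4e2, Msl1, Nap1l1, Tor1aip2 and 4933413G19Rik. The Nap1l1 site, in a gene for a nucleosome assembly protein, took 62.9% of its gene's reads in batch 1 and 34.3% in batch 2. The leading internal exon sites were those of Iqgap1, Telo2, Atp11a, Tspan15 and Npdc1, each with 100% of its gene's reads in both libraries. The GENCODE annotation places each of these 5 sites in a 3'UTR of at least 1 transcript of the gene. So the class given to a site rests on the gene model, and for these 5 genes the internal exon class held the main 3' end.

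To count sites per gene, genes needed at least 20 sense reads in each library, and a site needed a mean share over the libraries of at least 5% of the gene's sense reads. Of 13789 genes with a sense read in siCtrl cells, 8754 passed. Of these, 56.3% had 2 or more sites, with a median of 2 and a mean of 2.05. Each library on its own gave 56.2% in batch 1 and 56.2% in batch 2. A single site was found in 3824 genes, 2 sites in 2477, 3 in 1347 and 4 in 627. At the upper end, 52 genes had 7 sites, 14 had 8 and 3 had 9. In the last exon alone, 4297 genes (49.1%) had 2 or more sites. An intronic site was found in 1358 genes (15.5%) and an internal exon site in 95 (1.09%). A site needs few reads in a gene near the minimum. When a site also needed 5 reads in each library, a rule added after seeing the data, 45.8% of genes had 2 or more sites and the median was 1.

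**Figure D1:**
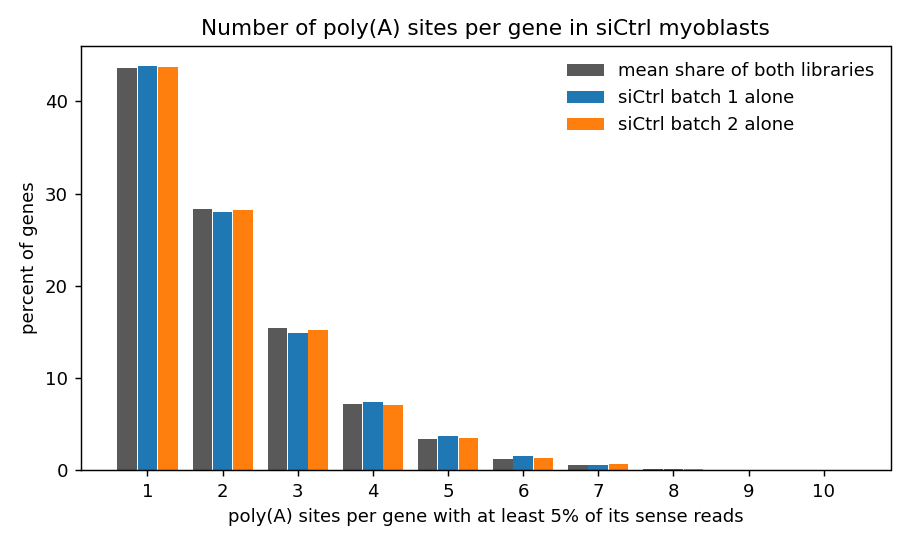
Percent of genes (vertical axis) with each number of poly(A) sites that reach 5% of the gene's sense reads (horizontal axis), for the mean share of both libraries and for each siCtrl library alone. Genes with 1 site are the most frequent, at 43.7% with the mean share, 43.8% in batch 1 and 43.8% in batch 2.

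The number of sites differed with the level of the gene. Among the 2189 genes with the lowest levels (up to 10.1 RPM) 72.9% had 2 or more sites, and among the 2189 with the highest (from 62.2 RPM) 36.3% did. The steps between were 63.0% and 53.1%. An intronic site was found in 31.6% of the lowest genes and in 4.02% of the highest. Highly expressed genes thus had fewer sites in these counts. The part of the number of reads behind each share in this was not tested.

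Genes with the most sites and at least 100 reads in each library included Tmem167, 1810013L24Rik and Ppp1r2. Tmem167 had 8 last-exon sites, and its leading site took 24.7% of reads in batch 1 but 12.4% in batch 2. In batch 2 the leading site of Tmem167 was its most downstream one, with 17.6%. Ppp1r2, which encodes an inhibitor of protein phosphatase 1, had 7 sites of which 1 was intronic, and the leading one took 34.6% and 37.3%. In Ppp1r2 the same site led in both libraries, while in Tmem167 the leader changed.

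A gene was called intronic dominant when its intronic sites together took at least 50% of its sense reads in each library. This held for 244 of 8754 genes (2.79%), and a further 146 genes passed in 1 library only. The cap-binding protein gene Eif4e2 led with 36334 reads in batch 1 and 28352 in batch 2, all at 1 intronic site. Msl1, for a subunit of the MSL histone acetyltransferase complex, had 100% in both libraries over 2 intronic sites, of which the main one took 94.1% and 90.5%. 4933413G19Rik also had 100% in both, although 1 of its 2 sites shares its position with a site of Foxm1. Tatdn1, a TatD nuclease family gene, had 100% in both over 2 intronic sites. These 4 genes had no last-exon site that reached 5%.

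In other intronic dominant genes some reads lay elsewhere. Tor1aip2, for an endoplasmic reticulum membrane protein that activates torsin, had 92.1% intronic reads in batch 1 (90.8 to 93.2) and 95.9% in batch 2 (95.3 to 96.4). Chd9, a chromodomain helicase gene, had 80.0% (77.9 to 81.9) and 86.5% (85.2 to 87.7), with 16.3% and 10.6% at its last exon. Masp1, a serine protease gene of the complement lectin pathway, had 98.3% and 96.2%. Ncam1, for a cell adhesion molecule of muscle precursors, had 92.4% and 91.0%. Zfr, for a zinc finger RNA-binding protein and named from a list of genes known for intronic sites, had 82.2% (80.3 to 83.9) and 74.3% (72.1 to 76.4). In these genes the libraries differed by less than 10 percentage points, and neither was higher throughout.

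**Figure D2:**
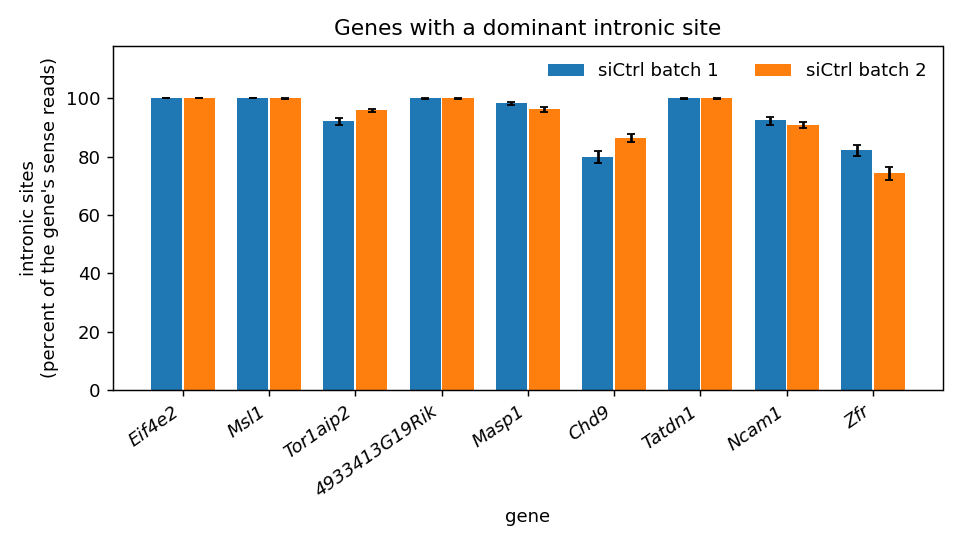
Share of each gene's sense reads at intronic sites (vertical axis, percent) for 9 intronic dominant genes in siCtrl batch 1 and siCtrl batch 2. Error bars are Wilson 95% intervals. All bars lie at 74.3% or above.

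The place of these sites in the annotation varied. The Chd9 site lay in intron 2 of 39, far upstream of the last exon, and the Masp1 site in intron 10 of 15. The Tor1aip2 site lay in intron 3 of 6 of the longest transcript and in a 3'UTR of 3 of the 8 GENCODE transcripts that span it. The Eif4e2 site lay in intron 6 of 6 of the longest transcript and in a 3'UTR of 2 of 6. The Ncam1 site lay in intron 14 of 17, within 50 bases of an annotated end of another transcript of the gene. An annotated end of the gene was thus near some of these sites and not near others.

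Over the 244 genes, the main intronic site lay within 50 bases of an annotated transcript end of the same gene in 80 genes (32.8%). In 9 (3.69%) only an end of another gene was that near, so the gene that these reads belong to is uncertain. In 155 genes (63.5%) neither was found. An intron in every GENCODE transcript that spans it held the site in 156 genes (63.9%), and a 3'UTR of some transcript held it in 64 (26.2%). In 110 of the 244 genes (45.1%) no last-exon site reached 5%. When the 80 genes with their own annotated end there were left out, a rule added after seeing the data, 164 genes remained intronic dominant.

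Intronic dominance in a single library was not always shared by the other. Of 344 genes that passed in batch 1, 70.9% also passed in batch 2, where their median intronic share was 75.4%. Of 290 that passed in batch 2, 84.1% also passed in batch 1, with a median of 85.7% there. In batch 2, 20 of the genes chosen in batch 1 fell below 20% intronic reads, and 5 did so the other way. Just inside the threshold were 2310045N01Rik with 52.8% and 54.5% and Thap1 with 53.2% and 63.4%. Just outside were Smtn with 66.0% and 49.7% and Rhobtb3 with 84.0% and 49.2%.

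Along the gene, intronic sites of at least 5% were spread from start to end with more in the downstream part. Of 1967 placed sites, 16.4% lay in the most upstream 20% of the gene and 23.9% in the most downstream 20%. For the main sites of dominant genes these shares were 18.7% and 27.2% of 235 sites. Intronic sites with no siCtrl read entered the 3'READS table through other libraries, so they were selected by those libraries and are no sample of unused sites. Of these, 28.3% of 7460 sites lay in the most upstream 20% and 16.7% in the most downstream.

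For APA in the last exon, the 2 sites of a gene with the most reads were compared, and the share of the proximal one among the reads of both was used. At least 20 reads of both sites together were needed in each library, which left 3985 genes. The median proximal share was 47.7% in batch 1 and 43.5% in batch 2. The proximal site took at least 50% in both libraries in 1552 genes (38.9%), the distal site took more in both in 1812 (45.5%), and in 621 the libraries were on different sides. Distal use was the more frequent of the 2 states.

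The genes with the most reads and a dominant proximal site included ribosomal protein genes. Rpl27a had a proximal share of 92.0% in batch 1 and 93.1% in batch 2, with its sites 599 bases apart. Rpl22 had 89.8% (89.0 to 90.5) and 61.1% (59.6 to 62.5), with sites 1587 bases apart. Rps27l, a ribosomal protein S27-like gene, had 70.01% and 77.0% at a spacing of 38 bases. The share of Rpl22 was clearly lower in batch 2, while Rps27l was higher there.

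Genes of other roles were also proximal. Lgals1, for the lectin galectin-1, had 74.6% and 70.3% at a spacing of 271 bases. Angptl2, for a secreted angiopoietin-like protein, had 85.1% (84.3 to 85.9) and 77.7% (76.8 to 78.7) at 1181 bases. Dctn2, a dynactin subunit gene, had 93.9% and 91.1% at 147 bases, and Bag1, an Hsp70 co-chaperone gene, had 94.5% and 85.5% at 25 bases. Proximal shares were lower in batch 2 in these 4 genes, yet the proximal site led in both libraries. Sites as near as those of Bag1 and Rps27l give 3'UTRs of nearly the same length.

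Some dominant proximal sites lay far from their distal partner. Impa1, for inositol monophosphatase, had a spacing of 12380 bases with 55.6% and 67.6% proximal reads. Mkln1, for muskelin, had 8839 bases with 84.6% and 69.1%. Qdpr, for dihydropteridine reductase, had 8538 bases with 82.0% and 98.5%. Sgcd, for the muscle membrane protein delta-sarcoglycan, had 8135 bases with 82.6% and 59.9%. The distal site lies outside the annotated gene in Impa1 and Qdpr, and in Sgcd it places the distal site in an intron, so these sites rest on the authors' assignment of sites to genes.

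The spacing of the 2 sites had a median of 632 bases and a range from 25 to 38256. Proximal dominance lay between 37.1% and 40.6% of genes in each step of spacing from 25 to 4968 bases. It was 38.9% of 606 genes with sites under 100 bases apart and 37.6% of 668 genes at 2000 to 4968 bases. The 78 genes with sites at least 5015 bases apart stood higher, at 56.4%. Just inside the threshold for a dominant proximal site were Ski with 66.7% and 50% and Capns1 with 52.3% and 50.04%. Just outside were Cct5 with 53.7% and 49.95% and Tbc1d10b with 59.0% and 49.8%.

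Whether the siCtrl libraries differed in proximal share was tested gene by gene with Fisher's exact test (two-sided) and Benjamini-Hochberg adjustment over the 3985 genes. The test compares the reads of 2 libraries, not conditions or batches, and has no replicates. It treats reads as independent molecules, which reads without identifiers are not, so its p-values, too, cover counting error only. At an adjusted p under 0.05, 2055 genes (51.6%) differed. The share was lower in batch 2 in 1204 of these and higher in 851. A difference of at least 10 percentage points was found in 1611 of them. The median difference, batch 2 minus batch 1, was -2.15 percentage points and the median size was 10.4. The share of called genes rests on depth, since with each library thinned to 1500000 reads 518 of 1953 genes (26.5%) were called.

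Single genes moved from mostly proximal to mostly distal between the controls. Ufd1l, for a ubiquitin-dependent protein degradation factor, had a proximal share of 87.7% in batch 1 and 9.39% in batch 2 (Fisher's exact test, adjusted p = 9.42e-94). Smap2, an Arf GTPase-activating protein gene, had 91.8% and 24.7%, and the RNA-binding protein gene Hnrnpul2 had 93.4% and 30.2%. In the other direction, Exoc5, for an exocyst subunit, had 24.8% and 96.1% (Fisher's exact test, adjusted p = 7.79e-195). Uxs1, for an enzyme that makes UDP-xylose, had 16.1% and 79.4%, and Rsl1d1, a nucleolar protein gene, had 19.6% and 78.5%. These 6 genes were named for the size of the difference, and each changed its leading site of the pair although both libraries are controls.

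**Figure D3:**
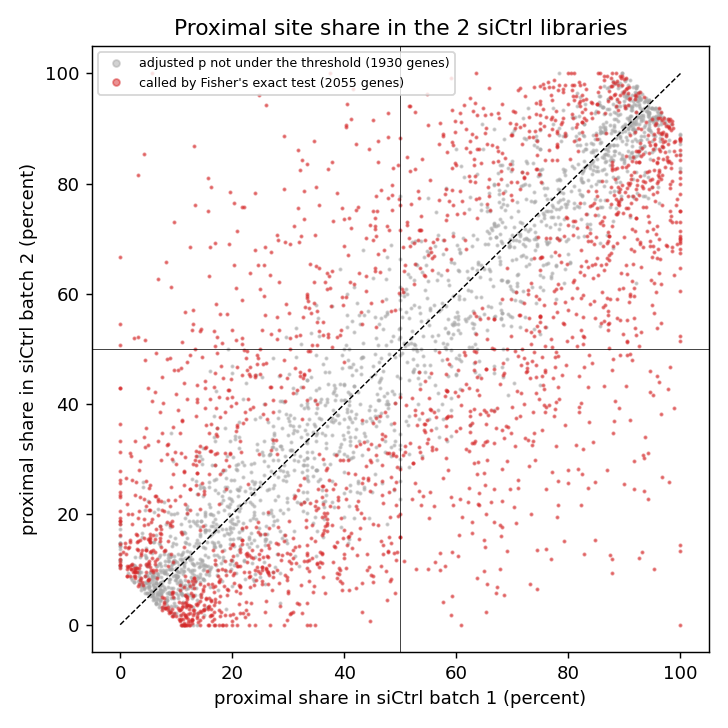
Proximal share of the 2 leading last-exon sites in siCtrl batch 1 (horizontal axis, percent) and siCtrl batch 2 (vertical axis, percent), 1 point for each of 3985 genes. Red points are the 2055 genes called by Fisher's exact test, grey points the other genes, the dashed line marks equal shares and the thin lines mark 50%.

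The share of reads at sites upstream of the last exon, intronic and internal exon together, was tested in the same way in 1278 genes with both kinds of site. Of these, 495 (38.7%) were called, 342 lower and 153 higher in batch 2, and the median difference was -4.42 percentage points. With each library thinned to 1500000 reads, 59 of 367 genes (16.1%) were called. Yars2, for the mitochondrial tyrosyl-tRNA synthetase, had an upstream share of 87.6% in batch 1 and 27.8% in batch 2 (Fisher's exact test, adjusted p = 4.55e-48). Pqlc3 had 79.7% and 40.2%, and Rhobtb3 had 87.9% and 51.6% of the reads of its kept sites. Higher in batch 2 were 1110014N23Rik with 7.73% and 39.8%, the splicing factor gene Luc7l with 22.3% and 52.2%, and the adhesion molecule gene Alcam with 61.6% and 87.2%. The site of Alcam lies in intron 1 of 15. The upstream share was lower in batch 2 in most called genes, with single genes far in either direction. A site was kept by its mean share over both libraries, so it could pass through its reads in 1 of them. With a minimum site share of 1% the median difference was -1.99 percentage points, and with 10% it was -6.08. At these settings 68.2% and 68.7% of called genes were lower in batch 2. The part of this rule in the lower share was not tested. The shift was smaller in deeper genes, where with at least 100 reads in each library the median difference was -1.003 percentage points and 117 of 198 called genes were lower.

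The genes of the cleavage and polyadenylation machinery are themselves known for APA, so their own sites were described. For this and the other lists, the shares to set beside the counts are those over all genes and pairs that passed. Of all genes, 56.3% had 2 or more sites, 15.5% had an intronic site and 2.79% were intronic dominant, and of all pairs 38.9% were proximal dominant and 51.6% were called. Of 23 machinery genes, 21 had at least 20 reads in each library, 13 had 2 or more sites, 5 had an intronic site and 0 were intronic dominant. Nudt21, for a cleavage factor I subunit, and Pabpn1, for the nuclear poly(A)-binding protein, were below the minimum with 11 and 24 and with 12 and 28 reads. Cstf3, whose intronic site is a textbook example of autoregulation by CstF, had 34.0% intronic reads of 53 in batch 1 and 48.8% of 123 in batch 2. Sympk, the scaffold symplekin, had 10.8% and 37.5%, and the poly(A) polymerase gene Papola had 5.87% and 19.0%. Pcf11, for a termination factor, had 9.09% and 3.08% in intron 1 of 15. By the test of the upstream share, Sympk, Papola and the CPSF subunit gene Wdr33 were called higher in batch 2, while Cstf3, Pcf11 and Rbbp6 were not called. These are all the machinery genes tested, 3 of 6 called, where 38.7% of all 1278 tested genes were. Over all genes the called differences ran mostly the other way, with 342 of 495 lower in batch 2 under the same rule for keeping sites.

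In the last exon, 8 machinery genes had a pair of sites, 3 were proximal dominant and 4 were called between the libraries, where 38.9% and 51.6% of all pairs were. Cstf2, for the CstF subunit that binds downstream elements, had a proximal share of 15.8% in batch 1 and 63.2% in batch 2. Papolg, a poly(A) polymerase gene, had 32.4% and 84.4%. Cpsf6, for a cleavage factor I subunit, went the other way with 74.7% and 40.9%. Wdr33, for the CPSF subunit that contacts the hexamer, had 88.8% and 88.9%. The median size of the difference was 16.9 percentage points, against 10.4 over all genes. In the lists below it was 18.1 for Paf1 complex genes and 13.1 for genes known for 3'UTR APA. It was 5.97 for genes known for intronic sites and 4.97 for muscle structural and housekeeping genes. These medians rest on 4 to 10 pairs in each list, and the part of depth in them was not tested.

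Of 13 genes known for intronic sites, 11 passed the minimum, 5 had an intronic site and 2 were intronic dominant, where 15.5% and 2.79% of all genes were so. The 2 were Zfr and the receptor gene Egfr. Egfr had 72.9% of 48 reads in batch 1 and 89.5% of 86 reads in batch 2. The kinase gene Cdk13 had 30.8% and 13.0%. Ddx5, Hnrnpa2b1, Pcbp2 and Kdr passed but had no intronic site of 5%, and Rbbp6 had an internal exon site with 6.98% and 6.02%. Cdk12 and Flt1 were below the minimum. Of 4 pairs in this list, 1 was called, where 51.6% of all pairs were. It was that of Ddx5, with a proximal share of 1.86% and 10.1%. The pair of Pcbp2 was the 1 that was proximal dominant, with 69.9% and 66.2%, where 38.9% of all pairs were.

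Of 22 genes known for 3'UTR APA, 17 passed, 11 had 2 or more sites and 0 had an intronic site of 5%, where 56.3% and 15.5% of all genes did. Among 10 pairs, 2 were proximal dominant, Elavl1 among them, and 7 were called, where 38.9% and 51.6% of all pairs were. Elavl1, which encodes the RNA-binding protein HuR, had a proximal share of 86.5% in batch 1 and 86.2% in batch 2. Timp2, a metalloproteinase inhibitor gene, had 68.4% and 45.3%, and the small GTPase gene Rab10 had 81.9% and 38.6%. The cyclin gene Ccnd1 had 38.3% and 25.6%. All 7 called genes, Zfp260, Tial1 and Cd47 among them, had a lower proximal share in batch 2, as did 58.6% of all called genes. For Dicer1, all reads lay at sites of the internal exon class in both libraries. Pax3 had no site in the table, and Nudt21, Bdnf, Igf2bp1 and Fgf2 were below the minimum.

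All 6 Paf1 complex genes passed, 4 had 2 or more sites and 3 of 4 pairs were proximal dominant. Over all genes, 56.3% had 2 or more sites, and of all pairs 38.9% were proximal dominant and 51.6% were called. Paf1 had a proximal share of 76.9% in batch 1 and 96.1% in batch 2, and Rtf1 had 51.2% and 72.6%. Both were called and higher in batch 2, and Cdc73 had 50% and 61.2% from few reads. Leo1 had 27.6% and 10.5%, while Ctr9 and Wdr61 had a single site. Of the 6, Rtf1 was the only gene with an intronic site, at 11.5% and 2.56%.

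Of 18 muscle structural and housekeeping genes, 18 passed, 7 had 2 or more sites, where 56.3% of all genes and 36.3% of the highest genes did, and 2 had an intronic site, where 15.5% of all genes did. Of 5 pairs, 0 were proximal dominant and 4 were called, where 38.9% and 51.6% of all pairs were. The beta-actin gene Actb had a single site with 2058 and 7388 RPM. Tpm1, for alpha-tropomyosin, had 17.9% and 19.2% of its reads in an intron. Vim, for vimentin, had a proximal share of 9.33% and 5.65%, and Eef2 had 6.26% and 11.6%, both with a called difference. The collagen gene Col1a2 had 4 proximal and 26 distal reads in batch 1 but 124 and 39 in batch 2, and Tpm4 was the other of the 4 called genes. Gapdh, with 143 and 80 reads, and Eef1a1, with 20 and 26, have many near-identical pseudogenes, and only uniquely mapped reads were counted, so their counts are uncertain.

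The hexamer AATAAA or ATTAAA in the 40 bases upstream separated kinds of site. It was found at 89.2% of the single last-exon sites (88.2 to 90.2), at 77.7% of distal sites and at 64.3% of proximal sites. Dominant distal sites had it at 84.0% and their proximal partners at 57.5%. Dominant proximal sites had it at 72.8% and their distal partners at 70.5%. Intronic sites of at least 5% had it at 73.0%, and the main sites of the intronic dominant genes at 84.0% (78.9 to 88.1). Antisense sites with reads in both libraries had it at 73.7%. In distal dominant genes the share of the leading sites was above that of their partners with no overlap of the intervals, while in proximal dominant genes the intervals overlapped.

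Sites with no siCtrl read, which again entered the table only through other libraries, are given as a description of that set. The hexamer was found at 42.9% of such last-exon sites, 52.1% of intronic, 19.8% of internal exon and 46.9% of antisense sites. In the background window the share was between 1.85% and 5.79% in all kinds of site. The motif TGTA, which cleavage factor I binds, was searched on the site's strand between 100 and 41 bases upstream. It was found at 47.0% of dominant distal sites and 36.4% of their proximal partners, and at 29.1% and 25.6% in the background windows. In proximal dominant genes it was found at 40.5% of the leading sites and 40.4% of their distal partners, and at 24.5% and 29.0% in the background windows. At least 7 As among the 10 bases after the site were found at 5.74% of intronic sites of 5%. They were found at 0.0800% of single last-exon sites, at 9.69% of antisense sites with reads in both libraries and at 9.02% of main sites of intronic dominant genes. The part of this base composition in the intronic and antisense counts was not tested.

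**Figure D4:**
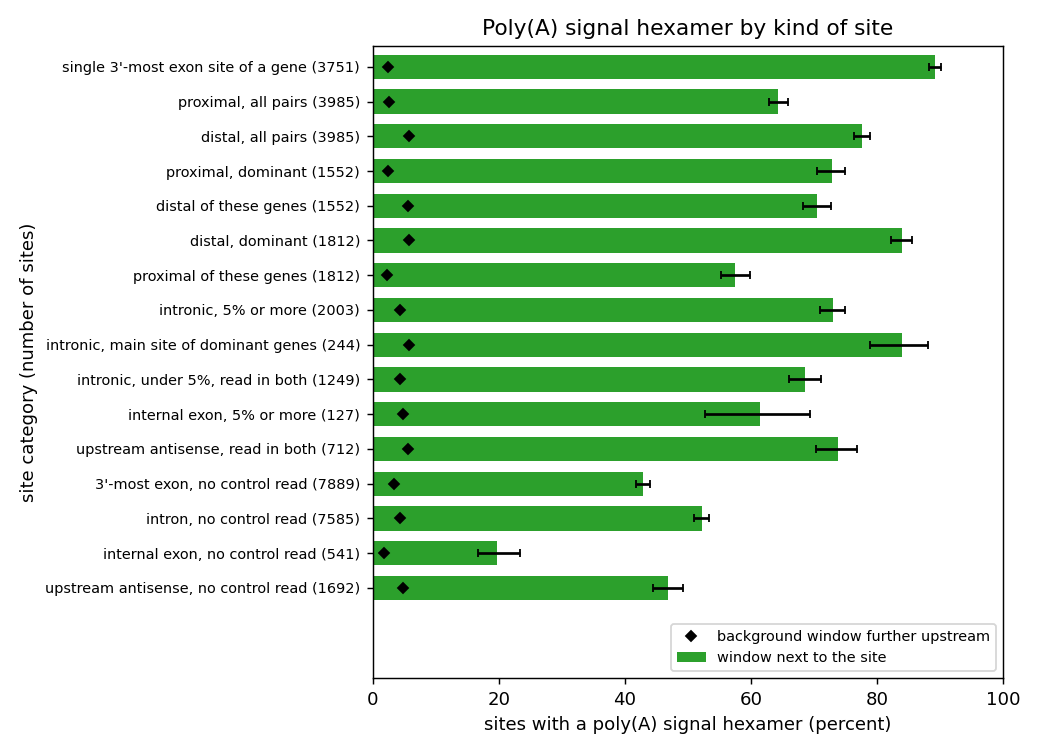
Percent of sites with a poly(A) signal hexamer in the 40 bases upstream (bars, with Wilson 95% intervals) by kind of site, with the number of sites in parentheses. Diamonds give the same share in a window 200 bases further upstream. Single last-exon sites stand highest at 89.2% and unread internal exon sites lowest at 19.8%.

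The agreement of site shares between the siCtrl libraries was described over 14165 sites of 4930 genes with 2 or more sites. Pearson's r was 0.850, as a description over sites that share genes and libraries. The median size of the difference was 9.05 percentage points, against a median standard error of 4.52 from counting alone. A difference beyond its 95% counting interval was found at 52.9% of sites. By class, r was 0.852 at last-exon sites, 0.745 at intronic and 0.804 at internal exon sites. The leading site was the same in both libraries in 4039 of the 4930 genes (81.9%).

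The median difference was lower in the deepest genes than in the shallowest, though not at each step, and stayed above counting error. In genes with 20 reads or more and under 50 in the shallower library, the median difference was 11.9 percentage points with a counting error of 7.63. In genes with 300 reads or more and under 1000 it was 6.51, and with 1000 or more and under 3000 it was 7.28. In genes with 3000 reads or more, it was 4.84 with a counting error of 0.602. The share of sites beyond the counting interval was 43.0% in the shallowest of these ranges and 84.0% in the deepest. So the median difference was larger than the counting error in each range of depth. Batch and replicate cannot be told apart here, since each batch held 1 siCtrl library.

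**Figure D5:**
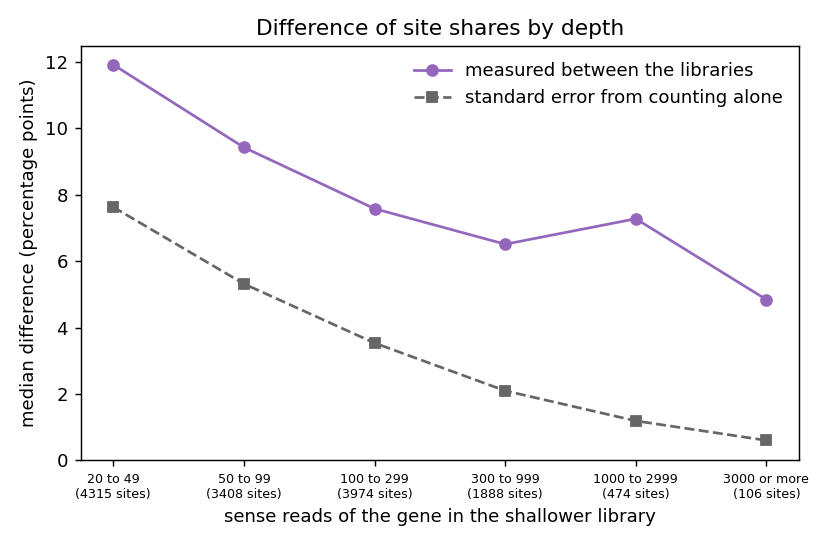
Median difference of site shares between the siCtrl libraries (vertical axis, percentage points) by the sense reads of the gene in the shallower library (horizontal axis, number of sites in parentheses). The circles, measured between the libraries, start at 11.9, pass 6.51 and 7.28 and end at 4.84, and the squares, the standard error from counting alone, fall from 7.63 to 0.602.

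Levels of whole genes also differed. Over 8754 genes, log2 RPM had a Pearson's r of 0.89 between the libraries, the median size of the difference was 0.62 on the log2 scale, and 27.5% of genes differed at least 2-fold. The relation was across genes, which are not independent replicates.

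Upstream antisense transcripts gave 1603 sites with a siCtrl read, in 1261 genes, and 712 sites had reads in both libraries. Placed sites with reads in both lay a median of 1206 bases upstream of the gene's GENCODE start, with quartiles of 568 and 2340 bases. The authors typed sites by RefSeq, so a distance from the GENCODE start can differ from theirs. Stc2, which encodes the secreted glycoprotein stanniocalcin-2, had the highest mean antisense level, with 430 antisense reads in batch 1 and 687 in batch 2. These were 84.5% and 83.2% of all reads of the gene on both strands. Ccdc85b had 462 and 276 antisense reads, Taf6l had 389 and 279, and Snx11, a sorting nexin gene, had 277 and 382. Gm5901 had 400 and 238 antisense reads and 0 sense reads in both. The leading antisense sites of Taf6l and Gm5901 lay 2810 and 3887 bases upstream of the GENCODE start. Those of Stc2, Ccdc85b and Snx11 lay 1163, 500 and 750 bases upstream. Of the 84 genes with at least 20 antisense reads in each library, a median of 47.8% of reads in batch 1 and 35.1% in batch 2 was antisense, and 40 had at least 50% in batch 1. These 84 genes were chosen by their antisense reads, and the class as a whole took few reads.

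The siCtrl RNA-seq libraries, which measure the coding region and give RPKM, were set beside these classes for 4248 of the 8754 genes matched by symbol. The 123 matched intronic dominant genes had a median of 10.99 RPKM in batch 1 and 9.93 RPKM in batch 2. The 4125 other genes had 22.8 and 20.9 RPKM. In 3'READS the same groups had medians of 12.9 and 14.2 RPM against 21.8 and 27.5 RPM. Intronic dominant genes were the lower group by both assays, and the difference was not tested. Across genes, 3'READS and RNA-seq had a Spearman's rho of 0.482 in batch 1 and 0.513 in batch 2, and the RNA-seq libraries had 0.920 with each other. For Pax7, with 0 reads in 3'READS, RNA-seq gave 12.6 and 1.48 RPKM.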

How the data were processed

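The authors mapped 3'READS reads to mm9 with Bowtie2 (version not given in the sources used here), retained uniquely mapping reads carrying untemplated Ts, assigned sites to RefSeq genes and deposited counts of PASS reads per site, without normalization. RNA-seq RPKM values, scaled by the authors by coding length and mapped reads, were deposited as well. The siCtrl columns of both tables were used and the knockdown columns were not. The 3'READS table held 8 per-sample columns, 2 used and 6 not used, beside 7 3'READS samples in the series. Samples were grouped by their labels, which do not say whether the libraries came from separate cultures, so their spread may be technical.

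Shares were computed from counts with Python 3.11.15, numpy 2.4.6, pandas 2.3.3 and scipy 1.17.1, figures with matplotlib 3.10.9, and sequence was read with pysam 0.24.0 from the NCBIM37 (mm9) genome. GENCODE vM1 matched 15570 genes with 98.6% of the sites. Wilson 95% intervals and limits for a count of 0 (3 reads) cover counting error only. A position shared by sites of different genes was found at 627 sites, which were kept. Fisher's exact test was tested on simulated data. Apart from the changes set in them, these data had no spread between libraries beyond counting error. Members and lists were chosen with earlier results of these data known.

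Named genes were all genes of the lists, the 8 with the most reads with a dominant intronic site and the 8 with a dominant proximal site (at least 100 reads in each library), the 4 proximal ones with the widest spacing, and the 4 with the most sites. Added to these were the 3 largest differences each way in each test (at least 200 reads), the 5 with the most antisense reads and the 5 leading sites of each class. Some of these genes are not reported here. The widest spacing was taken over all dominant proximal genes with at least 100 reads, and Rhobtb3, Smtn and the other threshold neighbours were named by their distance to the threshold. Alternatives were other minimum shares and reads, merged sites, shared positions left out, thinning, single libraries and other hexamer windows.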

Additional observations from a re-analysis of the deposited data

How the results depend on the processing

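With a site share of at least 1%, 70.8% of genes had 2 or more sites, and with 10% it was 43.6% with a median of 1. With at least 100 reads of the gene in each library these were 47.3% and a median of 1, with at least 10 reads 58.2%, after thinning to 1500000 reads 47.7% and a median of 1, and with 5 reads of the site in each library (chosen after seeing the data) 45.8% and a median of 1. Each library alone gave 56.2% and 56.2%. Intronic dominant genes, 244 in the main setting, numbered 104 (2.01% of genes, against 2.79%) with at least 100 reads, 97 (1.94%) after thinning and 365 (3.71%) with at least 10 reads. They numbered 385 in batch 1 alone and 402 in batch 2 alone, where 1 library has to pass. Dominant proximal genes, 1552, numbered 808 with at least 100 reads and 798 after thinning, while their share of pairs was 40.4% and 40.9%. They numbered 1905 (46.9% of pairs, against 38.9%) in batch 1 alone and 2051 (45.4%) in batch 2 alone, where 1 library has to pass. The intronic share of reads, 1.87% as the mean of the libraries, was 1.70% in batch 2 and 2.03% in batch 1. Without the 10 genes with the highest mean level it was 2.14%.

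Calls of proximal share, 2055, fell to 1264 with at least 100 reads and to 518 after thinning, and calls of upstream share, 495, to 198 and 59. The share of tested genes called rose to 63.1% and 54.0% with at least 100 reads and fell to 26.5% and 16.1% after thinning. The median upstream difference, -4.42 percentage points, was -1.003 with at least 100 reads, -1.99 with a site share of 1%, -2.42 after thinning, -6.08 with a site share of 10% and -4.94 with at least 10 reads. The test needs both libraries, so none could be left out. With at least 100 reads the correlation of site shares was 0.896 and the median difference 7.21 percentage points. Over sites of at least 5%, 71.8% had AATAAA or ATTAAA, 55.0% had AATAAA alone, 73.0% had either within 50 bases, and the background window gave 3.77%. Among intronic shares of named genes, 4 values moved by more than the spread of the libraries. No paired analysis was possible because only siCtrl libraries were compared, with 1 in each batch. Depth limits what can be said of genes near 20 reads, where 1 read is 5% of the gene.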

Other observations

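Kdr, an endothelial receptor gene, had 148 and 292 reads in 3'READS (20.0 and 29.8 RPM), all kept reads at 1 last-exon site, while RNA-seq of siCtrl cells listed it at 0 and 0.032 RPKM in its coding region. Thy1 was at 0 RPKM in RNA-seq and had no site listed under this symbol. Col3a1, by contrast, was high in both, with 2382 and 2876 RPM in 3'READS and 302 and 284 RPKM in RNA-seq. These values were seen while the markers were read and were not tested.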
